A study of Rattus norvegicus with 36 samples.

Results

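Hearts of rats that had run on a treadmill as juveniles were compared at 2 ages: 8 hearts of the early exercise group at 24 weeks and 7 of that group at 9 weeks, which is 15 of the 36 hearts measured in the study. All were male Wistar Kyoto rats of the Control group, born to sham-operated mothers, and all had been trained from week 5 to week 9. The 24-week rats were then left untrained for the remaining 15 weeks, whereas the 9-week rats were killed within days of their last run, so age and time since training changed together and cannot be told apart in these 2 groups. The question is which transcripts differ between the mature, detrained heart and the young, freshly trained one, and whether the same differences were present in rats that never ran: 7 sedentary rats of 24 weeks and 7 sedentary rats of 9 weeks, of the same strain, sex and Control group, serve for that.

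Total RNA of the crushed whole heart was hybridised to Illumina rat beadchips, 1 array per heart. Males of one litter were spread over the groups, and the labels name no litters, so the hearts of different groups may be siblings. A level below is the deposited, background-corrected and quantile-normalized log2 signal of a probe. A difference is the mean level at 24 weeks minus that at 9 weeks, given with its standard error (SE) from a linear model of all 5 groups of the study (limma, with Benjamini-Hochberg adjustment of p across every tested probe). A probe was called when the adjusted p was below 0.05. Of the 22523 probes, 10956 were detected on at least 7 of the 36 arrays and were tested, 8038 of them with a gene symbol. Chamber and cell type are mixed in a whole heart, and fewer cells of a type cannot be told apart from less RNA per cell.

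Between 9 and 24 weeks a rat passes from puberty to adulthood. Heart growth in this period is known to come from enlargement of existing cardiac muscle cells rather than from their division, while fibroblasts first lay down collagen and elastic fibres, cross-link them, and then quieten. The adult cardiac muscle cell also completes its contractile apparatus and its set of ion channels and relies on fatty acids for fuel.

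By the chip numbers used here the arrays sat on 3 chips, each with hearts of both ages. Chips 1, 2 and 3 held 3, 2 and 3 hearts of 24 weeks and 2, 2 and 3 hearts of 9 weeks. The methods describe fewer arrays per beadchip than 3 chips would need for all 36 hearts. The 5 early exercise arrays of chip 1 stood apart from the other 10, those of 24 weeks on the first and those of 9 weeks on the second principal component. On the first, which held 24.6% of the variance among the 15 arrays, replicates 8, 5 and 2 of 24 weeks lay at 30.6, 17.5 and 12.1, and no array of chips 2 and 3 lay above 4.28. On the second, replicates 3 and 5 of 9 weeks lay at 21.5 and 19.6, and no array of chips 2 and 3 lay above 6.09. Mean raw signal ran from 571 to 831 (median 779) at 24 weeks and from 613 to 962 (median 762) at 9 weeks, a ratio of 0.921 (two-sided exact permutation p = 0.286). From 9133 to 9985 probes were detected per array at 24 weeks (median 9665) and from 9727 to 10105 at 9 weeks (median 9890), a difference of -295 (exact permutation p = 0.0320, and 0.0640 adjusted over both measures). The markers of ventricular cardiac muscle had overlapping mean levels in both groups, 13.004 to 13.15 at 24 weeks and 12.97 to 13.18 at 9 weeks.

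**Figure D1:**
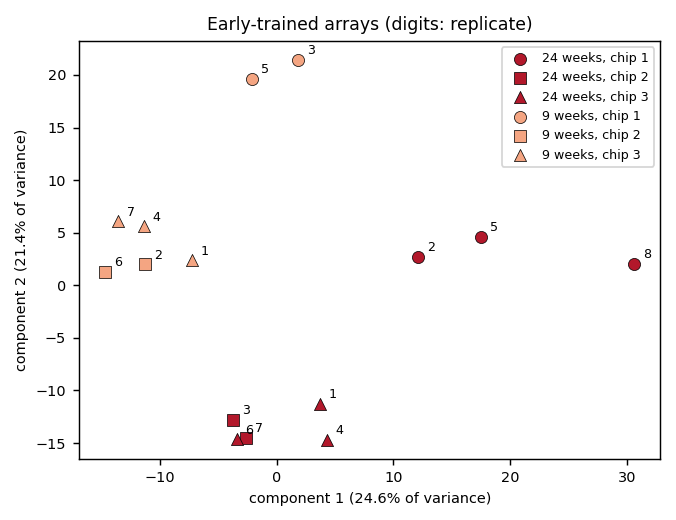
Position of each early exercise array on the first (x axis, 24.6% of variance) and second (y axis, 21.4%) principal component of the levels of all tested probes, with age by colour and chip by symbol. The 3 arrays of chip 1 at 24 weeks lie at 12.1 to 30.6 on the first component.

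At 24 weeks 477 probes were higher and 403 lower than at 9 weeks in early exercise hearts (4.35% and 3.68% of the probes tested), and 16 of the higher and 13 of the lower probes differed by 2-fold or more. At an unadjusted p below 0.05 there were 2191 probes (20.0%). The median size of a called difference was 0.44 on the log2 scale. Calls were fewest at low levels: of the 2739 probes at levels of 5.62 to 6.07, 14 were higher and 21 lower. Of the 2739 at 6.07 to 7.59, 104 were higher and 88 lower. The counts were 207 and 160 of the 2739 at 7.59 to 9.61. They were 152 and 134 of the 2739 at 9.61 to 15.06. The shares of all probes given beside the gene lists below are not matched for level. A list share slightly above them is therefore no sign of an excess. Of the 880 called probes, 243 had no overlap between the 2 ages (250 of all probes, 2.28%: 133 higher, 1.21%, and 117 lower, 1.07%), and in 869 the sign was shared by chips 1, 2 and 3. Without chip 1, which leaves fewer hearts of each age, 394 probes were higher and 283 lower, and 527 of the 880 calls remained. With all hearts kept and chip as a block, 693 were higher and 555 lower. All 880 calls remained in that setting, and 0 of the named genes lost their call. A call lost without chip 1 below is lost with fewer hearts, and in some genes the difference was also smaller. Cd14 went from 0.35 to 0.15 without chip 1, whereas Cpt1b, also lost, went from 0.30 to 0.34. Whether the difference between ages was itself different on chip 1 was not tested. The split of higher and lower rests on the normalization: with arrays scaled to a common median in place of quantile normalization the median of all probes was -0.18, 71 probes were higher and 1792 lower. Relative to that median all 880 calls kept their sign, and 12 of the 477 higher ones were below 0 as measured. Of the genes given below as higher, Pdrg1, Lmod2, Mypn, Cacna1g, Actc1, Igfbp6, Cpt1b, Acads, Pc, Bckdha, Mt1, Nfil3, Fmo2, Nqo1, Gpx4, Ddr2, Cd163, Ctss, Cd14, Tpsb2, Rps29, Rps24 and Arl6ip5 stayed above 0 but were not called under that scaling.

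**Figure D2:**
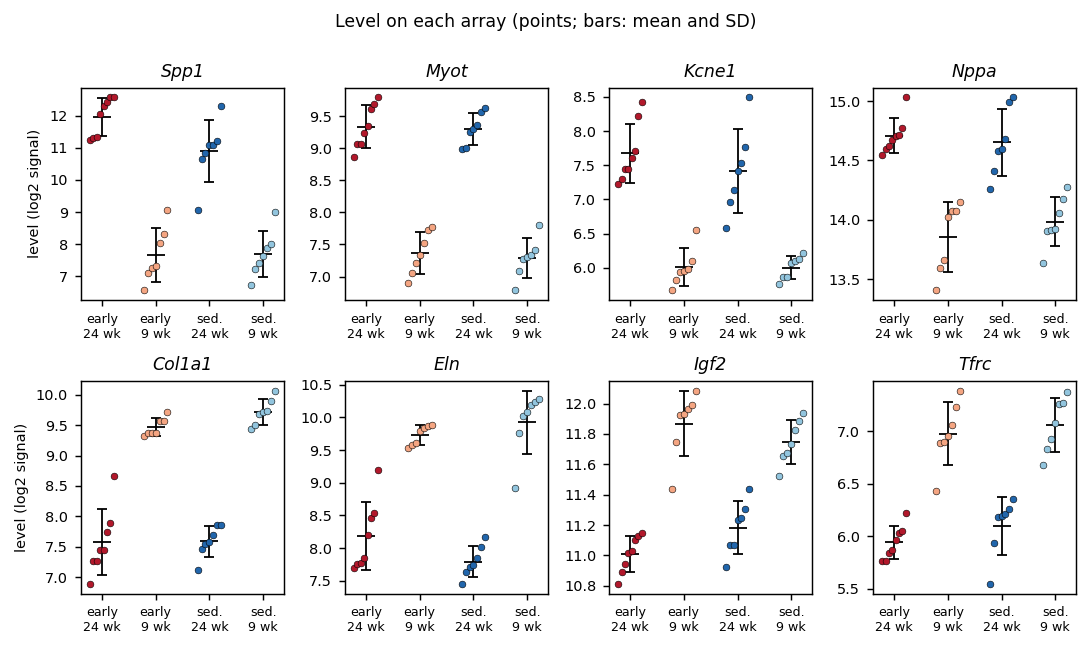
Level (y axis, log2 signal, a separate scale for each gene) on each array of early exercise hearts of 24 and 9 weeks and sedentary hearts of 24 and 9 weeks for 8 genes, with mean and SD. In all 8 the early exercise hearts of 24 weeks lie wholly above or wholly below those of 9 weeks.

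The genes of the extracellular matrix were the group with the most calls. Of 33 tested genes for collagens and for the proteins that assemble and cross-link them, 14 fell and 1 rose, a share of 42.4% lower beside 3.68% of all probes, with a median difference of -0.31 beside -0.01 over all probes. In 12 of the 14 every heart of 24 weeks lay below every heart of 9 weeks. That held for 1.07% of all probes, and of the 880 calls in either direction 243 had no overlap. The count was 15 lower and 1 higher without chip 1.

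Col1a1, which encodes one chain of type I collagen, the main fibre of heart and tendon, had lowest, median and highest levels of 6.88, 7.44 and 8.66 at 24 weeks, against 9.31, 9.37 and 9.71 at 9 weeks. Every heart of 24 weeks was thus below every heart of 9 weeks, and the difference was -1.89 ± 0.18, adjusted p = 4.03e-09, or 0.27 times the signal at 9 weeks. Its partner chain Col1a2 was at 13.10, 13.49 and 13.78 at 24 weeks, against 13.91, 14.09 and 14.29 at 9 weeks (difference -0.65 ± 0.10, adjusted p = 3.04e-05). Col3a1, the collagen of fine reticular fibres, was at 9.23, 9.51 and 10.26 at 24 weeks, against 10.51, 10.71 and 11.46 at 9 weeks (-1.15 ± 0.17, adjusted p = 1.61e-05). Both again fell without overlap, and Col1a2 fell by nearly the same amount on each chip (-0.64, -0.65 and -0.65 on chips 1, 2 and 3).

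The minor fibrillar chains that start collagen fibres fell as well, Col5a1 by 1.14 ± 0.17 (adjusted p = 1.02e-05) and Col5a2 by 0.88 ± 0.10 (adjusted p = 9.51e-08). Basement membrane and pericellular collagens followed: Col4a1 was at 9.48, 9.89 and 10.18 at 24 weeks, against 10.53, 10.81 and 11.11 at 9 weeks (difference -0.93 ± 0.11, adjusted p = 2.59e-07), with Col15a1 lower by a difference of -0.87 (adjusted p = 8.07e-06) and Col6a1 by one of -0.73 (adjusted p = 8.76e-06). None of these 5 collagens overlapped between the ages.

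Elastic fibres are built from elastin on a scaffold of fibrillin. Eln, the elastin gene, was at 7.69, 8.02 and 9.20 at 24 weeks, against 9.54, 9.80 and 9.88 at 9 weeks, and its difference of -1.55 ± 0.22, adjusted p = 9.78e-06, left 0.342 times the 9-week signal. Fbn1, the gene of fibrillin 1, was at 8.09, 8.47 and 8.68 at 24 weeks, against 8.81, 9.42 and 9.58 at 9 weeks (-0.86 ± 0.15, adjusted p = 0.000101). The lysyl oxidases, enzymes that cross-link collagen and elastin, fell together: Loxl2 was at 6.83, 7.55 and 7.99 at 24 weeks, against 8.48, 8.74 and 8.96 at 9 weeks (-1.19 ± 0.17, adjusted p = 1.26e-05), and Lox and Loxl1 fell by 0.92 (adjusted p = 0.000116) and 0.78 (adjusted p = 0.000148). Both probes of Loxl1 gave the same size, -0.78 and -0.79. Sparc, a collagen-binding matrix protein, fell by 0.50 (adjusted p = 0.042), but its call was lost with any 1 of 9 of the 15 arrays left out (adjusted p up to 0.0932) and without chip 1 (0.274).

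Serpinh1, the chaperone that folds procollagen in the endoplasmic reticulum, was the only matrix list member that rose, with 8.87, 9.03 and 9.39 at 24 weeks, against 8.02, 8.45 and 8.84 at 9 weeks and no overlap (difference 0.64 ± 0.12, adjusted p = 0.000574). The other 18 members, among them the collagen hydroxylases, decorin and biglycan, differed by -0.64 to 0.18 and were not called.

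**Figure D3:**
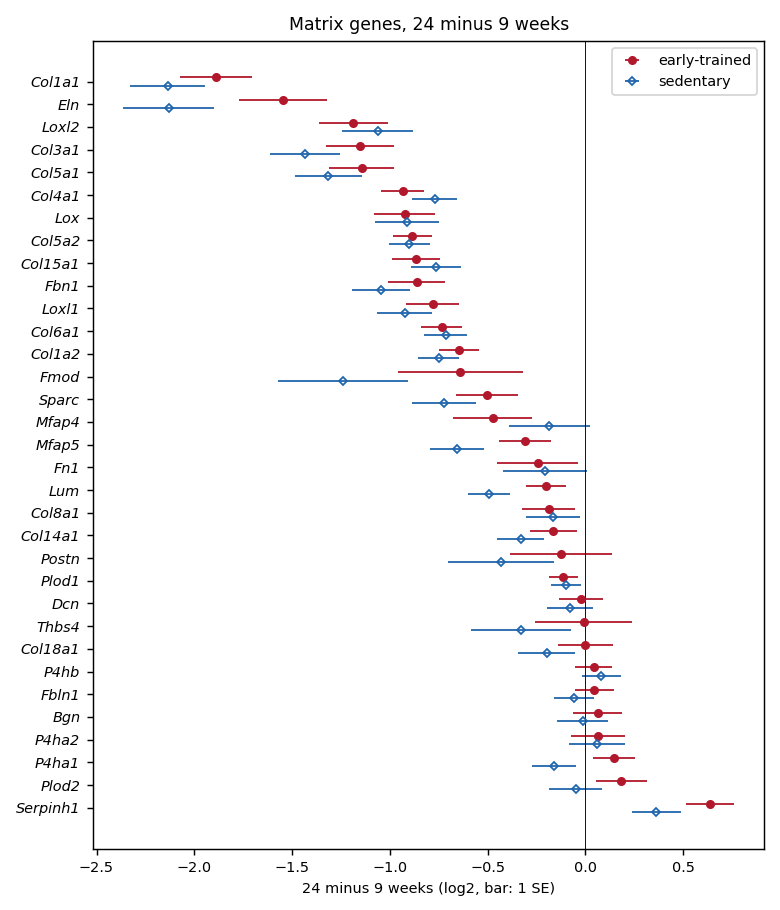
Difference between 24 and 9 weeks (x axis, log2; bars, 1 SE) of the 33 genes of collagens and matrix assembly in early exercise hearts (filled) and sedentary hearts (open). The differences of early exercise hearts run from -1.89 for Col1a1 to 0.64 for Serpinh1, and those of sedentary hearts reach -2.14.

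The sequence around the start of Col1a2 is given as an example of a collagen gene that fell, and that of Spp1, the largest rise, beside it. Each runs from 250 bases before to 50 bases after the RefSeq start on its own strand in build GRCr8 (Col1a2, chr4:33518307-33518606, plus strand; Spp1, chr14:5619755-5620054, minus strand). Capitals mark the TATA motif TATAAA, the CCAAT motif and the AP-1 motif TGANTCA, searched on both strands; the capitals ATTGG are CCAAT on the other strand, and no 2 matches overlap.
Col1a2: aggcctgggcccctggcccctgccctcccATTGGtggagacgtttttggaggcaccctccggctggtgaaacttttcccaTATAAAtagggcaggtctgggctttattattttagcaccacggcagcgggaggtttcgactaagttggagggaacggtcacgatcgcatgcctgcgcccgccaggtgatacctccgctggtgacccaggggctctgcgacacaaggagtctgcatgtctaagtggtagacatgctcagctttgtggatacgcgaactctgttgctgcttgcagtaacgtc
Spp1: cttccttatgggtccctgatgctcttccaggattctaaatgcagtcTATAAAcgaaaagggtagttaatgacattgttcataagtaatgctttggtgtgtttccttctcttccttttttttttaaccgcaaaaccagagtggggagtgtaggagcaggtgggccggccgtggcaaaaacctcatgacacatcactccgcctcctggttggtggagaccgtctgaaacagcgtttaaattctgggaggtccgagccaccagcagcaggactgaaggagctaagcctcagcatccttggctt
TATAAA was found in both windows, and in 14.2% of all 33469 promoter windows of this length. It began at -170 from the RefSeq start in Col1a2 and at -204 in Spp1. Whether it serves as a TATA box at either place was not tested. Of the 14 matrix genes that fell, 9 had a window, and TATAAA stood in 1 of them (Col1a2), CCAAT in 2 (37.5% of all windows) and TGANTCA in 1 (7.33%).

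The largest single rise was that of Spp1, osteopontin, a secreted phosphoprotein that binds integrins and is made by macrophages and by stressed muscle cells. Its levels were 11.23, 12.17 and 12.58 at 24 weeks, against 6.56, 7.32 and 9.05 at 9 weeks. All 8 hearts of 24 weeks lay above all 7 of 9 weeks, and the difference of 4.31 ± 0.44, adjusted p = 9.79e-09, corresponds to a 19.9-fold higher signal. It was 4.97, 3.97 and 3.92 on chips 1, 2 and 3. In the complement and acute phase list 3 of 22 tested members rose (13.6%, beside 4.35% of all probes) and none fell, the other 2 being Reg3b and Timp1. Reg3b, a secreted lectin of the acute phase response, was at 8.44, 8.58 and 9.59 at 24 weeks, against 7.17, 7.47 and 7.63 at 9 weeks (1.41 ± 0.19, adjusted p = 2.31e-06), and Timp1, an inhibitor of matrix metalloproteases, was at 10.48, 10.80 and 11.04 at 24 weeks, against 9.78, 10.03 and 10.36 at 9 weeks (0.75 ± 0.12, adjusted p = 8.76e-05). Neither overlapped between ages. Ccl7, a chemokine for monocytes, was at 7.61, 8.16 and 9.17 at 24 weeks, against 7.05, 7.10 and 7.26 at 9 weeks (1.17 ± 0.18, adjusted p = 1.62e-05), and its difference was 1.73, 0.76 and 0.90 on the 3 chips.

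Of 17 markers of macrophages 3 rose (17.6%, beside 4.35% of all probes) and none fell. Cd163, a haemoglobin scavenger receptor, rose by 0.50 (adjusted p = 0.00458). Ctss, a lysosomal protease, rose by 0.38 (adjusted p = 0.036), and Cd14, the co-receptor for endotoxin, by 0.35 (adjusted p = 0.0436). The mean level of the 17 markers was 8.47 to 9.03 at 24 weeks and 8.41 to 8.79 at 9 weeks. None of the 3 was called without chip 1, and the call was lost with any 1 of 7 arrays left out for Ctss and of 10 for Cd14. The part of these cells in the Spp1 difference was not tested.

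In cardiac muscle genes the changes were few but among the largest of all. Of 22 tested sarcomere genes 3 rose (13.6%, beside 4.35% of all probes) and none fell, and the other 19 differed by -0.50 to 0.31. Myot, which encodes myotilin, a Z-disc protein that bundles actin, was at 8.86, 9.30 and 9.80 at 24 weeks, against 6.91, 7.33 and 7.77 at 9 weeks, with more than 1 log2 unit between the groups (difference 1.98 ± 0.15, adjusted p = 1.05e-11; 3.93-fold). Lmod2, leiomodin 2, which nucleates thin filaments, rose by 0.42 (adjusted p = 0.00328), and Mypn, a Z-disc partner of nebulin and titin, by 0.52 (adjusted p = 0.00989). Under common-median scaling, where all probes shifted by -0.18, Lmod2 differed by 0.19 and Mypn by 0.24, and neither was called. Ankrd23, a titin-associated ankyrin repeat protein of muscle, was at 7.54, 8.10 and 8.75 at 24 weeks, against 6.11, 6.33 and 6.73 at 9 weeks (1.76 ± 0.16, adjusted p = 1.18e-09). Art1, a muscle enzyme that attaches ADP-ribose to arginines, was at 7.89, 8.54 and 9.30 at 24 weeks, against 6.42, 6.83 and 7.10 at 9 weeks (1.82 ± 0.19, adjusted p = 1.05e-08). As for Myot, the 2 ages did not overlap.

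Of 26 tested genes for calcium handling and ion channels 2 rose (7.69%, beside 4.35% of all probes) and none fell. The mean level of this list was 8.88 to 9.01 at 24 weeks, and 207 of the 2739 probes at levels of 7.59 to 9.61 were higher. Whether 7.69% exceeds the share among probes of like level was not tested. Kcne1, the subunit that slows the delayed rectifier potassium current, was at 7.23, 7.53 and 8.43 at 24 weeks, against 5.67, 5.96 and 6.56 at 9 weeks and was detected on all 8 arrays of 24 weeks but on 5 of 7 of 9 weeks. The groups did not overlap and the difference was 1.67 ± 0.23, adjusted p = 3.57e-06. Cacna1g, a T-type calcium channel of pacemaker and atrial tissue, rose by 0.57 (adjusted p = 0.0284), a call lost without chip 1 (adjusted p = 0.0751) and with any 1 of 7 arrays left out.

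The list of the hypertrophy-associated fetal programme holds genes whose levels in the overloaded adult ventricle return towards those of the fetus, both fetal genes that rise again and adult genes that decline, such as Myh6 and Atp2a2. Here 3 of its 11 tested members rose (27.3%, beside 4.35% of all probes) and none fell. In sedentary hearts 3 members were higher and 0 lower. These counts pool both kinds of gene, so they give no direction for the programme. Nppa, atrial natriuretic peptide, was at 14.55, 14.69 and 15.03 at 24 weeks, against 13.41, 14.03 and 14.15 at 9 weeks, without overlap (0.85 ± 0.11, adjusted p = 2.04e-06). Rcan1, a calcineurin inhibitor that calcineurin itself induces, was at 12.26, 12.54 and 12.78 at 24 weeks, against 11.54, 11.89 and 12.33 at 9 weeks (0.68 ± 0.13, adjusted p = 0.000548). Actc1, cardiac alpha-actin, was at 8.51, 8.69 and 8.93 at 24 weeks, against 7.98, 8.29 and 8.50 at 9 weeks (0.48 ± 0.11, adjusted p = 0.00521), a call not reached without chip 1 (adjusted p = 0.0508). Its probe read far below the mean of the ventricular markers (13.004 to 13.15 at 24 weeks). How well that probe reads the transcript was not tested. The best-known pair of the programme was not called: the adult myosin heavy chain Myh6 had a difference of 0.04 ± 0.10, whose sign changed under other settings (given with the processing), and the fetal myosin Myh7 one of -0.20 ± 0.11 (adjusted p = 0.315). Nppb, brain natriuretic peptide, differed by 0.17 ± 0.13 (adjusted p = 0.503), and its sign was negative under common-median scaling. The other 5 members (Acta1, Tnni3, Myl7, Ankrd1 and Atp2a2) were not called either. Among 7 atrial markers, of which Nppa is 1, none other was called (14.3% higher, beside 4.35% of all probes). The mean level of the list was 8.86 to 9.52 at 24 weeks and 8.66 to 9.08 at 9 weeks.

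Few genes of energy metabolism were called. None of 39 tested oxidative phosphorylation genes was called, with differences of -0.12 to 0.19, nor any of 17 genes of cholesterol synthesis and uptake. In fatty acid oxidation 2 of 37 rose and 1 fell (5.41% and 2.7%, near the 4.35% and 3.68% of all probes). The carnitine palmitoyltransferases, which admit long-chain fatty acids to mitochondria, moved in opposite directions: Cpt1a, the liver form, which the newborn rat heart carries beside the muscle form, fell by 0.39 (adjusted p = 0.0101) with levels of 9.38, 9.59 and 9.67 at 24 weeks, against 9.84, 9.98 and 10.10 at 9 weeks, and Cpt1b, the muscle form, rose by 0.30 (adjusted p = 0.046) with levels of 10.80, 10.98 and 11.24 at 24 weeks, against 10.42, 10.68 and 10.92 at 9 weeks. The 2 ages did not overlap for Cpt1a but did for Cpt1b. The Cpt1a call was lost without chip 1 (adjusted p = 0.089), and that of Cpt1b with any 1 of 9 arrays left out (adjusted p up to 0.128). Acads, a dehydrogenase of short-chain acyl-CoA, rose by 0.32 without overlap (adjusted p = 0.0189).

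Pfkp, the platelet form of phosphofructokinase, was the only call among 24 genes of glycolysis and glucose use (4.17% lower, near the 3.68% of all probes). It was at 8.74, 8.93 and 9.15 at 24 weeks, against 9.22, 9.37 and 9.63 at 9 weeks, with no overlap (-0.50 ± 0.07, adjusted p = 3.81e-06). Pc, pyruvate carboxylase, rose by 0.55 (adjusted p = 0.00458; 0.102 without chip 1) as 1 of 22 citric acid cycle genes (4.55%, near the 4.35% of all probes). Among 13 genes of ketone and branched-chain amino acid use 2 rose (15.4%, beside 4.35% of all probes). Bckdha, the catalytic subunit of the branched-chain ketoacid dehydrogenase, rose by 0.30 (adjusted p = 0.00575). In the same pathway Ivd, isovaleryl-CoA dehydrogenase, rose by 0.21 (adjusted p = 0.0465), a call lost with any 1 of 10 arrays left out and with a sign that turned to -0.01 under common-median scaling. Scd, the desaturase that makes oleic acid, differed by -1.88 ± 0.54, adjusted p = 0.0239, but with 5.69, 6.14 and 6.81 at 24 weeks, against 6.02, 7.77 and 12.0003 at 9 weeks the groups overlapped. The highest 9-week value came from 1 heart (replicate 1), and without it the difference was -1.21 (adjusted p = 0.0687). Without chip 1 it was -2.14 (adjusted p = 0.0677).

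Of the imprinted growth genes, 2 fell (33.3% of those tested, beside 3.68% of all probes). Igf2, the imprinted growth factor of fetal and juvenile life, was at 10.81, 11.02 and 11.15 at 24 weeks, against 11.44, 11.93 and 12.08 at 9 weeks, without overlap (-0.86 ± 0.09, adjusted p = 1.64e-08), and its difference was -0.85, -0.85 and -0.89 on the 3 chips. Ndn, necdin, an imprinted inhibitor of cell growth, was at 7.63, 7.97 and 8.26 at 24 weeks, against 8.28, 8.93 and 9.16 at 9 weeks, again without overlap (-0.89 ± 0.11, adjusted p = 8.69e-07). The other 4 of 6 tested imprinted growth genes differed by -0.10 to 0.10. Of 29 genes of insulin-like growth factor and Akt signalling 3 fell, Igf2 among them, and 1 rose (10.3% and 3.45%, beside 3.68% and 4.35% of all probes). Of the binding proteins that hold the factor outside the cell, Igfbp3 fell by 0.57 (adjusted p = 0.000232), Igfbp7 by 0.28 (adjusted p = 0.0346, lost with any 1 of 7 arrays left out), and Igfbp6, which prefers IGF-II, rose by 0.37 (adjusted p = 0.0101; 0.0899 without chip 1).

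Cell division genes had a mean level of 6.49 to 6.73 at 24 weeks and 6.53 to 6.84 at 9 weeks. Of 23 tested, 2 fell (8.7%, beside 3.68% of all probes). Tyms, thymidylate synthase, fell by 0.33 (adjusted p = 0.03) and Ube2c, a ubiquitin-conjugating enzyme of mitotic exit, by 0.50 (adjusted p = 0.0323). Each lost its call with single arrays left out (7 of 15 for Tyms and 6 for Ube2c), and no member was called without replicates 5 and 8 of 24 weeks.

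In the antioxidant and detoxification list 4 of 37 rose and 2 fell (10.8% and 5.41%, beside 4.35% and 3.68% of all probes). Fmo1, a flavin-containing monooxygenase that oxidises nitrogen and sulphur compounds, was at 9.39, 9.76 and 10.12 at 24 weeks, against 8.43, 8.74 and 9.15 at 9 weeks, without overlap (0.94 ± 0.12, adjusted p = 9.32e-07). Its relative Fmo2 rose by 0.74 (adjusted p = 0.0108) and Nqo1, a quinone reductase, by 0.37 (adjusted p = 0.0101), both with overlap, and the peroxidase Gpx4 rose by 0.22 (adjusted p = 0.0258; 0.051 without chip 1), a call lost with any 1 of 3 arrays left out. Ephx2, soluble epoxide hydrolase, fell by 0.33 (adjusted p = 0.0196; 0.062 without chip 1 and 0.0564 without replicate 5 of 9 weeks), and Txn2, the mitochondrial thioredoxin, fell by 0.61 without overlap (adjusted p = 0.0062). Maoa, monoamine oxidase A of the outer mitochondrial membrane, which breaks down noradrenaline and serotonin, was at 10.99, 11.64 and 12.62 at 24 weeks, against 9.94, 10.22 and 10.52 at 9 weeks (1.43 ± 0.14, adjusted p = 3.33e-09; 2.7-fold). Its groups did not overlap, and the difference was 1.46, 1.27 and 1.47 on the 3 chips.

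Sts, steroid sulfatase, had a very small adjusted p, with 9.21, 9.62 and 9.87 at 24 weeks, against 8.19, 8.56 and 8.73 at 9 weeks (1.09 ± 0.09, adjusted p = 3.47e-10). Ces1c, a secreted carboxylesterase, was at 8.82, 9.16 and 9.36 at 24 weeks, against 7.53, 8.10 and 8.64 at 9 weeks (1.06 ± 0.13, adjusted p = 2.59e-07). Cda, cytidine deaminase, was at 7.75, 8.00 and 8.56 at 24 weeks, against 6.50, 6.79 and 7.48 at 9 weeks (1.20 ± 0.15, adjusted p = 8.69e-07). In all 3 genes the ages did not overlap. Of the other genes with the smallest p among those that rose, Rnd1, which loosens the actin cytoskeleton, was at 7.52, 7.77 and 8.06 at 24 weeks, against 6.41, 6.59 and 6.68 at 9 weeks (1.21 ± 0.12, adjusted p = 6.5e-09). Cpxm2, a carboxypeptidase-like secreted protein, and Pdrg1, a partner of the prefoldin chaperone, rose by 0.90 (adjusted p = 2.59e-07) and 0.53 (adjusted p = 7.41e-07), both without overlap. Pdrg1 was not called under common-median scaling (adjusted p = 0.0583).

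Among genes that glucocorticoids induce, 2 of 16 rose and 1 fell (12.5% and 6.25%, beside 4.35% and 3.68% of all probes). Fkbp5, a chaperone that restrains the glucocorticoid receptor, was at 10.60, 10.99 and 11.21 at 24 weeks, against 9.41, 9.63 and 10.87 at 9 weeks (1.21 ± 0.15, adjusted p = 4.59e-07), and overlapped in that 1 heart of 9 weeks (replicate 1) lay above the lowest 2 of 24 weeks. Mt1, the metal-binding protein metallothionein 1, rose by 0.67 (adjusted p = 0.00381). Klf9, a transcription factor that the receptor induces, fell by 0.37 (adjusted p = 0.045), a call lost with any 1 of 12 arrays left out. Of 11 clock genes 1 rose and 1 fell (9.09% each, beside 4.35% and 3.68% of all probes). Nfil3, a repressor in the clock's side loop, rose by 0.37 (adjusted p = 0.0173). Bhlhe40, a repressor of CLOCK and BMAL1 targets, fell by 0.44 (adjusted p = 0.0302). The core genes Bmal1, Per1, Per2, Cry1, Cry2 and Nr1d1 were not called, nor were Dbp, Tef and Csnk1d, at differences of -0.61 to 0.36. The Bhlhe40 call was lost with any 1 of 6 arrays left out and that of Nfil3 without replicate 3 of 9 weeks (adjusted p = 0.0501), and neither was called without chip 1. None of 23 immediate early genes was called.

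Hspb1, the small heat shock protein HSP27, was the only call among 33 heat shock proteins and chaperones (3.03% higher, beside 4.35% of all probes). It was at 13.21, 13.42 and 13.68 at 24 weeks, against 12.75, 12.85 and 13.02 at 9 weeks without overlap (0.58 ± 0.09, adjusted p = 1.38e-05). Of 53 ribosomal protein genes 2 rose and none fell (3.77% higher, near the 4.35% of all probes). Rps29 rose by 0.30 (adjusted p = 0.018) and Rps24 by 0.45 (adjusted p = 0.0244). The call of Rps29 was lost without replicate 7 of 9 weeks (adjusted p = 0.0593). That of Rps24 was lost without replicate 3 or 5 of 9 weeks (adjusted p up to 0.0762). With single arrays left out, the difference ran from 0.27 to 0.34 for Rps29 and from 0.37 to 0.50 for Rps24.

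Of 8 tested erythroid markers 4 fell (50%, beside 3.68% of all probes) and none rose. The mean level of the list was 9.50 to 10.15 at 24 weeks and 9.999 to 11.12 at 9 weeks. Ahsp, the chaperone of free alpha-globin, was at 8.53, 9.46 and 10.29 at 24 weeks, against 10.21, 10.72 and 11.74 at 9 weeks (-1.47 ± 0.34, adjusted p = 0.00458), with a slight overlap. Hemgn, a nuclear protein of erythroid precursors, fell by 0.70 (adjusted p = 0.00302), Slc4a1, the anion exchanger of the red cell membrane, by 0.72 (adjusted p = 0.0322), and Epb42, its membrane skeleton partner, by 0.35 (adjusted p = 0.0481). The calls of Slc4a1 and Epb42 were lost with any 1 of 7 and 10 arrays left out, and 2 of the 4 remained without chip 1. The other 4 were not called: Hba-a1 and Hbb differed by 0.03 and -0.02, and Hbb-b1 and Alas2, the first enzyme of erythroid haem synthesis, by -0.50 and -0.78. Tfrc, the transferrin receptor that takes up iron in dividing and erythroid cells, was at 5.77, 5.92 and 6.22 at 24 weeks, against 6.44, 6.95 and 7.38 at 9 weeks without overlap (-1.04 ± 0.12, adjusted p = 9.51e-08), and was detected on 5 of 8 arrays of 24 weeks and all 7 of 9 weeks.

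The largest fall of all was that of Alox15, a lipoxygenase of arachidonic and linoleic acid made by eosinophils, macrophages and reticulocytes. Its levels were 7.13, 7.94 and 9.25 at 24 weeks, against 9.74, 9.999 and 12.41 at 9 weeks, and the ages did not overlap (-2.52 ± 0.49, adjusted p = 0.000754; 0.174 times the 9-week signal). Nrep, a neuronal and fibroblast protein linked to wound repair, was at 6.65, 7.59 and 8.03 at 24 weeks, against 8.62, 8.94 and 9.60 at 9 weeks (-1.53 ± 0.18, adjusted p = 2.79e-07). Atp6v1g2, a subunit of the vesicular proton pump that is known from neurons, was at 7.97, 8.19 and 8.56 at 24 weeks, against 9.26, 9.36 and 9.98 at 9 weeks (-1.26 ± 0.13, adjusted p = 6.5e-09). Car8, a carbonic anhydrase-like protein that has lost its catalysis, was at 7.91, 8.10 and 8.32 at 24 weeks, against 8.89, 8.93 and 8.98 at 9 weeks (-0.81 ± 0.07, adjusted p = 1.18e-09), and Krt24, a type I keratin, at 5.77, 6.13 and 6.62 at 24 weeks, against 6.86, 7.28 and 7.47 at 9 weeks (-1.11 ± 0.13, adjusted p = 2.23e-07). None of these 4 genes overlapped between the ages. None of 8 tested markers of neurons and Schwann cells was called.

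Of 12 fibroblast markers 5 fell and 1 rose (41.7% and 8.33%, beside 3.68% and 4.35% of all probes). Col1a1, Col1a2 and Col3a1 are in the matrix list too, and the other 2 were Tcf21, a transcription factor of cardiac fibroblasts, which fell by 0.50 (adjusted p = 0.000294), and Pdgfra, the platelet-derived growth factor receptor alpha, which fell by 0.36 (adjusted p = 0.017; 0.0584 without replicate 6 of 9 weeks). Ddr2, a collagen receptor, rose by 0.41 (adjusted p = 0.0242, and 0.0835 without chip 1), a call lost with any 1 of 5 arrays left out. The 6 markers not called, Vim, Dcn and Gsn among them, differed by -0.31 to 0.03. The mean level of the fibroblast list was 11.13 to 11.48 at 24 weeks and 11.61 to 11.86 at 9 weeks, without overlap. As 6 of the 12 markers are in the matrix list too, that mean is not separate from the matrix genes. How far fibroblast number bears on the matrix genes was not tested.

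Of 11 endothelial markers 3 fell (27.3%, beside 3.68% of all probes) and none rose. Emcn, endomucin of capillaries and veins, was at 12.03, 12.36 and 12.47 at 24 weeks, against 12.52, 12.67 and 12.75 at 9 weeks without overlap (-0.35 ± 0.07, adjusted p = 0.00157). Cldn5, the tight junction claudin, differed by -0.38 (adjusted p = 0.00579) and Tie1, an orphan receptor of the angiopoietin system, by -0.43 (adjusted p = 0.0159). Of these only Emcn was called without chip 1. The second probe of Tie1 gave -0.41 with an adjusted p of 0.0780. The mean level of the endothelial list was 9.74 to 10.12 at 24 weeks and 10.04 to 10.24 at 9 weeks. Rgs5, a pericyte marker, fell by 0.32 (adjusted p = 0.0143; 0.115 without chip 1) as 1 of 8 smooth muscle and pericyte markers (12.5%, beside 3.68% of all probes). Wt1, a transcription factor of the epicardium, fell by 0.37 (adjusted p = 0.0273; 0.103 without chip 1; lost with any 1 of 4 arrays left out) as 1 of 5 mesothelial markers (20%).

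Of 5 tested mast cell markers 2 rose and 1 fell (40% and 20%, beside 4.35% and 3.68% of all probes). The tryptases Tpsab1 and Tpsb2 rose by 0.48 (adjusted p = 0.016) and 0.46 (adjusted p = 0.0245), whereas the chymase Cma1 fell by 0.64 (adjusted p = 0.0247). The protease Cpa3 and the receptor Kit differed by -0.30 and -0.16 and were not called. The Cma1 difference was 0.02, -1.02 and -0.88 on chips 1, 2 and 3. The calls of Tpsb2 and Cma1 were lost without single arrays, Tpsb2 without replicate 3 or 5 of 9 weeks or 7 of 24 weeks (adjusted p up to 0.0644) and Cma1 without replicate 6 of 9 weeks or 4 or 6 of 24 weeks (up to 0.0881). Cd8a, the co-receptor of cytotoxic T cells, rose by 0.59 (adjusted p = 0.00237; 0.06 without chip 1) and was detected on 8 of 8 arrays of 24 weeks and 5 of 7 of 9 weeks, while Cd3d, Cd3e and Cd3g, which every T cell carries, differed by -0.10 to 0.07. No marker of thymocytes, B cells, neutrophils, platelets, adipocytes or skeletal muscle was called among the 4, 3, 3, 4, 8 and 5 tested.

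Genes of the interferon response and of antigen presentation on MHC class I were mostly below 0 but rarely called. Of 39 tested 32 had negative differences, with a median of -0.26. In calls 1 fell and 1 rose (2.56% each, beside 3.68% and 4.35% of all probes). RT1-S3, a non-classical class I gene, fell by 0.57 (adjusted p = 0.0284; lost with any 1 of 6 arrays left out), and its difference was -0.02, -0.83 and -0.83 on chips 1, 2 and 3. Oas1k, an oligoadenylate synthetase, rose by 1.251 ± 0.25 (adjusted p = 0.000755), with 8.15, 8.59 and 9.59 at 24 weeks, against 6.50, 7.45 and 8.57 at 9 weeks. Without chip 1, 7 of the 39 were lower and 1 higher, with a median of -0.36. Of 7 class II genes, which are carried by antigen-presenting cells, 2 fell (28.6%, beside 3.68% of all probes). RT1-Da fell by 0.42 (adjusted p = 0.01) and RT1-Ba by 0.37 (adjusted p = 0.0124).

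**Figure D4:**
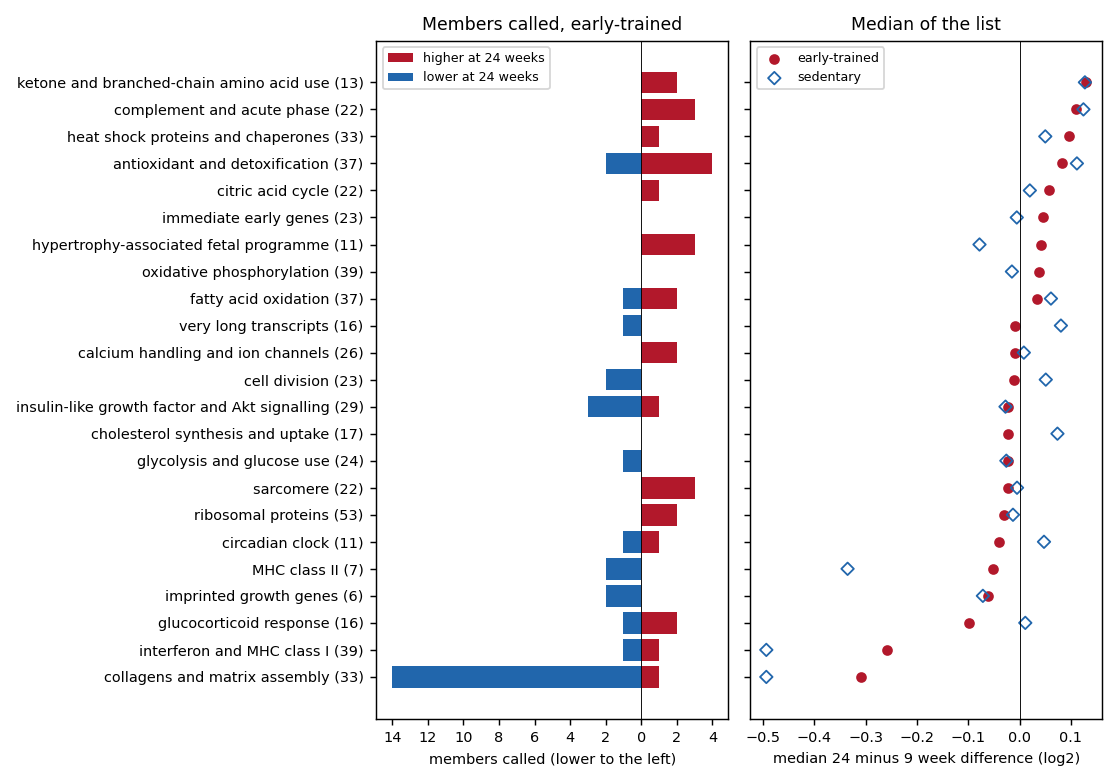
For 23 gene lists (number of tested genes in brackets), the members higher (right) and lower (left) at 24 weeks in early exercise hearts (left panel), and the median difference of the list in early exercise (filled) and sedentary hearts (open; right panel, log2). The matrix list has 14 lower and 1 higher member, and no other list has more than 4 of either.

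In hearts that were never trained the same ages differed by 381 higher and 338 lower probes (3.48% and 3.09% of those tested). Of the 880 probes called in early exercise hearts 378 were called in sedentary hearts too, all in the same direction, which is 42.95% of the early exercise calls and 52.6% of the sedentary ones, and 861 of the 880 had the same sign. Over all probes the correlation of the 2 sets of differences was 0.75, a description across genes, which are not independent replicates. The sets share no heart, but they share chips, normalization and the estimate of spread.

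**Figure D5:**
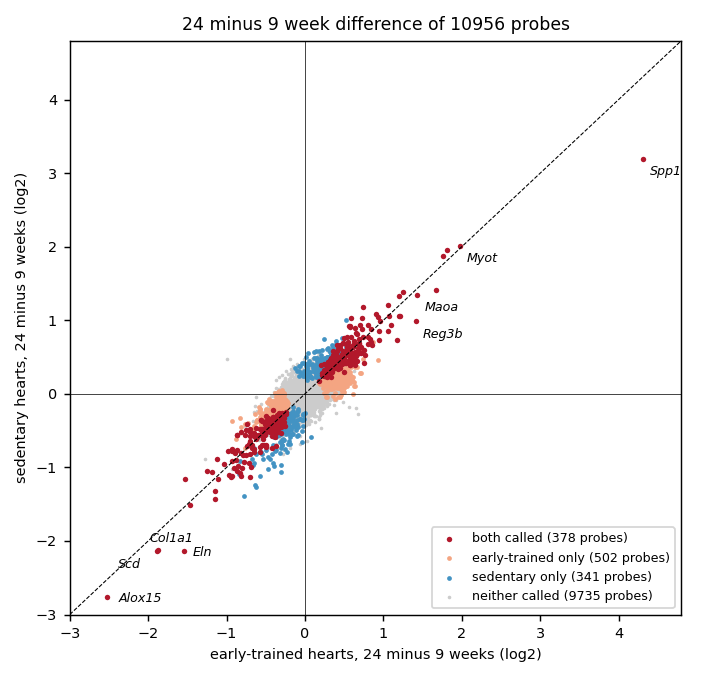
Difference between 24 and 9 weeks in early exercise hearts (x axis, log2) against that in sedentary hearts (y axis, log2) for each tested probe, coloured by whether it was called in both, one or neither. The 378 probes called in both have the same sign on both axes, and Spp1 lies at 4.31 and 3.19.

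In the test of whether the difference between ages was itself different in early exercise and sedentary hearts, 0 probes were called (0.00%; limma, smallest adjusted p 0.999) and 334 probes (3.05%) had an unadjusted p below 0.05. The interval of that contrast was wide beside most calls: its 95% half-width had a median of 0.31 on the log2 scale. For Spp1 the difference was 4.31 in early exercise and 3.19 in sedentary hearts, and early minus sedentary was 1.12 (95% interval -0.16 to 2.40). For Eln it was -1.55 in early exercise and -2.13 in sedentary hearts (0.59, -0.07 to 1.24). For Col1a1 the values were -1.89 and -2.14 (0.25, -0.29 to 0.78), and for Myot 1.98 and 2.02 (-0.04, -0.47 to 0.39).

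By limma, the 6 genes with the smallest p for the contrast were Rnf125, Arl6ip5, Lrfn3, Reps1, Usp3 and Ager, all at an adjusted p of 0.999. Arl6ip5, an endoplasmic reticulum protein that slows glutamate transport, was the only one of them called in early exercise hearts, at 10.22, 10.31 and 10.38 at 24 weeks, against 9.64, 9.88 and 10.02 at 9 weeks without overlap (0.42 ± 0.10, adjusted p = 0.0045), beside -0.05 in sedentary hearts (contrast 0.47, 0.19 to 0.76). Rnf125, a ubiquitin ligase, differed by -0.18 in early exercise and 0.28 in sedentary hearts (contrast -0.46, -0.73 to -0.18). For Lrfn3, a synaptic adhesion protein, Reps1, an endocytosis adaptor, Usp3, a histone deubiquitinase, and Ager, the receptor for glycated proteins, the contrast was -0.44, -0.32, -0.38 and -0.43.

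The list that differed most in count between the 2 comparisons was interferon and MHC class I. In early exercise hearts 1 of its 39 genes was higher and 1 lower (median -0.26), and in sedentary hearts 1 was higher and 18 lower (median -0.49). Over all probes the medians were -0.006 and 0.005. Without chip 1 the early exercise count was 1 higher and 7 lower (median -0.36), and the sedentary count in that setting is not given here. Early minus sedentary was above 0 in 37 of the 39, with a median of 0.26, but none of these contrasts was called and 5 had an unadjusted p below 0.05. The 39 genes were measured in the same hearts and are not independent replicates. Of the 7 class II genes 2 were lower in early exercise and 3 in sedentary hearts, and the contrast was above 0 in 6, with 3 at an unadjusted p below 0.05 and none called. It was 0.32 for RT1-Da (0.01 to 0.63) and 0.33 for RT1-Ba (0.05 to 0.62). The mean level of the 39 genes ranged from 8.62 to 9.17 in early exercise hearts of 24 weeks and from 8.53 to 9.55 in those of 9 weeks.

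For the matrix genes 14 of 33 were lower and 1 higher in early exercise hearts, and 17 lower and none higher in sedentary hearts (medians -0.31 and -0.49), with no contrast called. Among the genes with values above, chosen with those values known, the unadjusted interval of the contrast excluded 0 for Car8 (-0.81 in early exercise and -0.51 in sedentary hearts; -0.51 to -0.08), Ctss (0.38 and -0.07; 0.11 to 0.79), Igf2 (-0.86 and -0.56; -0.56 to -0.03), Pfkp (-0.50 and -0.71; 0.01 to 0.41), Igfbp6 (0.37 and 0.08; 0.01 to 0.56) and Emcn (-0.35 and -0.13; -0.43 to -0.01), besides the class II genes RT1-Da and RT1-Ba and the 6 genes chosen on this contrast. The adjusted p of each was 0.999.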

How the data were processed

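The scanner tables hold raw probe intensities and a detection score (1 minus a detection p-value) per array, as deposited by the authors; the log2 values are the authors' normalized table. By the methods, lumi corrected the background, stabilized the variance and took log2, whereas the submitters' processing notes name limma 3.24.15 and R 3.2.2; normexp background correction and quantile normalization in limma, run here on the raw signals, gave values within 0.0417 of the deposited ones. Probes with a score of at least 0.95 on 7 or more of 36 arrays were kept (10956 of 22523). Gene symbols came from the platform annotation (13793 probes with 1 symbol, 8730 with none). A model with 1 mean per group for all 5 groups was fitted in limma 3.58.1 (R 4.3.3), with Benjamini-Hochberg adjustment; the script was tested on simulated data. Exact permutation tests used 6435 groupings. The text names genes from the 12 largest called changes in each direction (by the probe that changed most), the 4 smallest p of each list (by the probe of highest mean level), all of 3 short lists, the 6 smallest p for the contrast with sedentary hearts, and the 4 next smallest p in each direction; others were chosen after their values were seen. Members and lists were chosen with earlier results of these data known. Replicates are separate hearts. Alternatives covered scaling, background, filter, chip, replicate block, array weights and single arrays left out; those restricted to chips 2 and 3, or without replicates 5 and 8 of 24 weeks, were chosen after seeing the data.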

Additional observations from a re-analysis of the deposited data

Results flagged for a closer look

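In 16 of 236 sets of values 1 heart lay far from the others of its group by Dixon's test, where chance alone gives about 1 in 20. The sets were the named genes, the mean raw signal and the probes detected, each in both groups, and all 16 were of named genes. At 24 weeks these were Ces1c at 8.82 (replicate 2), Lmod2 at 11.69 (replicate 7), Nppa at 15.03 (replicate 1), Nppb at 13.91 (replicate 5), Cd8a at 6.11 (replicate 3), Cma1 at 6.90 (replicate 8), Rps29 at 13.24 (replicate 2) and Bpgm at 12.10 (replicate 2). At 9 weeks they were Col5a2 at 10.64, Mypn at 7.92, Hemgn at 7.53 and Lrfn3 at 6.61 (all replicate 5), Scd at 12.0003 and Fkbp5 at 10.87 (both replicate 1), Gpx4 at 13.59 (replicate 3) and Atp6v1g2 at 9.98 (replicate 4). Among these 16 sets, leaving out the heart named ended the call for Scd and Gpx4 alone; Nppb and Lrfn3 were not called with all hearts.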

How the results depend on the processing

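Scaling to a common median gave 71 higher and 1792 lower probes in early exercise and 69 and 194 in sedentary hearts, and Nppb (-0.056), Myh6 (-0.17) and Ivd (-0.012) changed sign. Array weights gave 780 higher and 738 lower in early exercise and 593 and 546 in sedentary hearts, and chip as a block 574 higher in sedentary hearts. Without replicates 5 and 8 of 24 weeks, 429 were higher and 284 lower. Myh6, not called, was also at -0.013 without replicates 5 and 8 of 24 weeks, and ranged from -0.016 to 0.10 with single arrays left out. The thresholds of the study's methods (an unadjusted p and a limit on fold in each direction) passed 784 probes (549 higher and 235 lower), 1668 with common-median scaling and 432 with no background correction; after Benjamini-Hochberg adjustment 526 remained. With single arrays left out, the higher probes numbered 373 to 478, the lower 292 to 380, and the contrast with sedentary hearts called 0 each time. The replicate numbers did not pair the hearts (correlations of -0.28 to 0.28, over 0.1 in 4 of 7), and with the number as a replicate block 423 were higher and 331 lower. Values normalized from the raw signals called 884 probes, 880 of them shared. The number of arrays and the signal over background limit the precision.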

Other observations

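The genes in these paragraphs were chosen after their values were seen. Apln, the peptide apelin of endothelial cells, fell by 0.74 ± 0.12 without overlap (adjusted p = 3.18e-05), with levels of 8.06, 8.46 and 8.69 at 24 weeks, against 8.92, 9.12 and 9.48 at 9 weeks. Its receptor Aplnr fell by 0.70 (adjusted p = 0.00163), and so did 3 endothelial genes outside the marker list: Cd93, a C-type lectin receptor, by 0.68 (adjusted p = 0.000252), Plvap, of the diaphragm of fenestrae, by 0.60 (adjusted p = 0.0249) and Nos3, endothelial nitric oxide synthase, by 0.35 (adjusted p = 0.0432). The calls of Plvap and Nos3 were lost with any 1 of 5 and 7 arrays left out. Scn4b and Scn3b, beta subunits of the sodium channel, rose by 0.71 (adjusted p = 0.000256) and 0.74 (adjusted p = 0.00458), both without overlap. Under common-median scaling neither was called (0.46 and 0.48, with all probes at -0.18).

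Lgals3, galectin 3 of macrophages, rose by 0.80 without overlap (adjusted p = 4.32e-05). Mmp14, a membrane-bound collagenase, fell by 0.81 without overlap (adjusted p = 7.41e-07), and Fkbp10, which helps to fold procollagen, by 0.44 (adjusted p = 0.00312). Of further red cell genes, Rhd, of the Rhesus complex, fell by 0.76 (adjusted p = 0.0388), Bpgm, which makes bisphosphoglycerate, by 0.52 (adjusted p = 0.0353) and Hba-a3, an alpha-globin, by 0.81 (adjusted p = 0.0433), each lost with any 1 of 8, 8 and 13 arrays left out. Of 82 tested probes of smell and taste receptors 14 were higher (17.1%, beside 4.35% of all probes) and 0 lower, by 0.43 to 0.58, in early exercise hearts. In sedentary hearts 2 were higher and 0 lower. Under common-median scaling 2 were higher and 0 lower. Their median level was 5.87, against 7.59 over all probes and 5.70 over the probes that were detected on exactly 7 arrays.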
